A study of Mus musculus with 2 samples.

Results

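In the forebrain of mouse embryos, 10 miRNA gene models collected sequencing reads almost solely on the strand opposite to the annotated one, and a known miRNA hairpin is annotated on that opposite strand in each. These 10 of the 1973 gene models in the count tables were chosen by their measured values. Each had more counts on the opposite strand than on its own strand, and 10 or more opposite-strand counts, in both libraries. They are Gm24321, Gm25927, Gm25252, Gm24083, Gm25301, Gm25750, Mir299b, Mir497b, Gm24111 and Gm25641. An eleventh gene model, Mir142b, met the same thresholds and is described once below, so that 11 of 1973 models, or 0.558%, met them.

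The data are microRNA-seq read counts from the forebrain of mouse embryos at 14.5 days, from the inbred strain B6NCrl, with no treatment or engineered allele in the labels. There were 2 libraries in 1 group, numbered as biological replicates 1 and 2, each labelled as a single forebrain and collected on different days. The labels also give the sex of each as pooled and both libraries the same donor, which is at odds with single embryos. The p-values between the libraries take in counting error only and do not measure a spread between animals. Part of the difference between these 2 samples may be technical. No other tissue, age or treatment was available as a reference, and no test between conditions was possible.

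Replicate 1 held 18598385 reads and replicate 2 held 20638071 reads. Counts on the annotated strand of miRNA gene models came to 7080317 in replicate 1 and 7946585 in replicate 2, and opposite-strand counts to 98534 in replicate 1 and 114480 in replicate 2. Opposite-strand counts were thus 1.37% and 1.42% of all counts at these models. Levels are given as CPM, counts per 1000000 annotated-strand counts of the library, and a single count equals 0.141 CPM in replicate 1 and 0.126 in replicate 2. Reads that matched several places, 43.3% and 42.2% of all reads, entered no gene model. Among markers of the tissue, 8 of 9 neural miRNA genes were detected, meaning 10 or more counts in each library, at 11482 and 11053 CPM summed. Mir137, which is enriched in the brain, led them at 7614 ± 481 CPM (SD, n = 2). Mir9-3, Mir128-1, Mir128-2 and Mir153 had means between 595 and 1649 CPM. Mir9-2, Mir124a-1 and Mir124a-2 were low, at 5.00, 2.21 and 1.78 CPM, and Mir124a-3 was not detected. Reads that fit several loci are left out, so these levels do not put the miRNAs in order. Markers of other cell types were present as well: the endothelial Mir126a stood at 22103 and 22365 CPM, the 4 blood markers at 513.0 and 663 CPM summed, and the smooth muscle or stromal Mir143 and Mir145a at 3480 and 3901 CPM summed. The epithelial Mir200b and Mir429 stood at 305 and 634 CPM summed, the liver marker Mir122 at 10.3 and 10.2 CPM, and of the 3 striated muscle markers only Mir206 was detected, with Mir1a-1 and Mir133a-1 at 0. A level of 0 does not show absence, since reads that match several places are not counted. In bulk tissue fewer cells of a type and less RNA per cell cannot be told apart, and the part of these cells in the levels below was not tested.

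A miRNA gene is transcribed into a primary transcript that folds back into a hairpin. Drosha and Dicer cut the hairpin into a short duplex, and 1 or both of its arms, named 5p and 3p, are loaded into an Argonaute protein, where the seed near the 5′ end of the arm pairs with target messenger RNAs. Because a hairpin is nearly self-complementary, the transcript of the other DNA strand can often fold too, and for some loci the annotation holds a miRNA gene on each strand. A strand-specific count then separates the arms of the hairpin on one strand from those on the other.

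The Mir409 locus shows how a counted model and its opposite-strand miRNA relate. Below are the Mir409 hairpin, transcribed from the plus strand (RefSeq, GRCm38.p6, chr12:109743158-109743236), with its 5p and 3p arms in capitals, and the Gm24321 model on the minus strand (GENCODE M21 annotation, GRCm38, chr12:109743158-109743237), with the stretches opposite those arms in capitals, both written 5′ to 3′.
Mir409: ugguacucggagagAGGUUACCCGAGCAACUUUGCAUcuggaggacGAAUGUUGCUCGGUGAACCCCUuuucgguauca
Gm24321: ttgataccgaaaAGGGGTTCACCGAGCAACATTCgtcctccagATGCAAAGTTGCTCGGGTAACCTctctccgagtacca

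Reads of the arms in the first sequence count as opposite-strand reads of the second. The model is 80 nt long and the hairpin 79 nt, and the model runs past the hairpin by 1 nt at the 3′ end of the hairpin.

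The mature arms below are those of the 3 other miRNAs opposite the 4 most abundant models, with let-7f-5p and miR-497a-5p added for their seeds, which are those of known families. The seed, bases 2 to 8 counted from the 5′ end, is in capitals, and all sequences are RefSeq's on GRCm38.p6.
let-7e-5p: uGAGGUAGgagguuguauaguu
let-7e-3p: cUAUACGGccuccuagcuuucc
let-7f-5p: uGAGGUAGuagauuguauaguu
miR-376a-5p: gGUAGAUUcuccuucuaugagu
miR-376a-3p: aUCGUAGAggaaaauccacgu
miR-191-5p: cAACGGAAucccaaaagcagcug
miR-191-3p: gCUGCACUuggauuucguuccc
miR-497a-5p: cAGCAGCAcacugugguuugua

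Arms of Mir378a are not reported here. For the other 9 of the 10 miRNAs, 18 arms were read from RefSeq. These arms carry 17 distinct seeds, and the only seed present more than once was GAGGUAG, in let-7e-5p and let-7f-5p. The deposited counts are per gene model and do not separate the arms, so which arm carried the reads could not be read from them.

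At the Mir299 locus both strands can give nearly the same arms, and RefSeq lists mature arms for each strand. The arms of Mir299a, on the plus strand opposite the counted model, come first, followed by those of the counted model Mir299b, with seeds in capitals.
miR-299a-5p: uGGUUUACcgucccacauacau
miR-299a-3p: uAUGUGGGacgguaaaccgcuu
miR-299b-5p: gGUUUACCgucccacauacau
miR-299b-3p: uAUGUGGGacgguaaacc

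The sequence of miR-299b-5p, 21 nt, is identical to bases 2 to 22 of miR-299a-5p, and that of miR-299b-3p, 18 nt, to bases 1 to 18 of miR-299a-3p. A read confined to those bases fits either strand of the locus, at different positions, and reads that matched several places entered no gene model. The level of Mir299b therefore leaves out any such read. Its values are less certain than those of models whose arms fit a single place. The longest stretch found on both strands within the hairpin was 21 nt at Mir299a, 14 nt at Mirlet7f-1 and 12 nt at Mir9-1, and between 6 and 9 nt at the others. None of the 18 arms occurred whole on the strand of its counted model.

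The 10 models lie on 7 chromosomes, and their positions (mm10) are those of GENCODE M21, a later release on the same assembly. Of them, 4 are on the minus strand of chromosome 12, where the Dlk1-Dio3 region holds a large miRNA cluster on the plus strand: Mir299b at chr12:109710645-109710693, opposite Mir299a; Gm25750 at chr12:109711779-109711890, opposite Mir380; Gm25252 at chr12:109723756-109723875, opposite Mir376a; and Gm24321. No host gene on the strand of the miRNA was annotated for Mir299a, Mir380 or Mir376a, and Mir409 lies in an intron of the lincRNA gene Mirg. Gm25927 lies at chr17:17830343-17830459 on the minus strand, opposite Mirlet7e in an intron of the protein-coding gene Spaca6. Gm24083 lies at chr9:108568295-108568414 on the minus strand, opposite Mir191, which overlaps an exon of the lincRNA gene 4833445I07Rik. Gm25301 lies at chr18:61397813-61397925 on the plus strand, opposite Mir378a in an intron of Ppargc1b, which encodes a transcriptional coactivator of oxidative metabolism. Mir497b lies at chr11:70234692-70234816 on the minus strand, opposite Mir497, with no host gene. Gm24111 lies at chr13:48537825-48537921 on the plus strand, opposite Mirlet7f-1, which overlaps an exon of the lincRNA gene 6720427I07Rik. Gm25641 lies at chr3:88215589-88215696 on the minus strand, opposite Mir9-1 in an intron of the lincRNA gene Gm3764. The version of the gene ID in the tables equals that of M21 for 9 of the 10, and differs for Mir299b.

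In 9 of the 10 cases the counted model spans the whole hairpin of the opposite-strand miRNA. The models are 49 to 125 nt long and the hairpins 61 to 93 nt. The exception was Mir299b, a model of 49 nt inside the hairpin of Mir299a of 63 nt, which leaves 7 nt of the hairpin uncovered on either side. The models opposite Mir409 and Mirlet7f-1 fit their hairpins most closely, with 0 and 1 nt beyond the hairpin at the 2 ends of Mir409 and 4 nt at each end of Mirlet7f-1. Those opposite Mir376a, Mir191, Mir378a and Mir380 run 22 to 27 nt beyond it at each end.

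**Figure D1:**
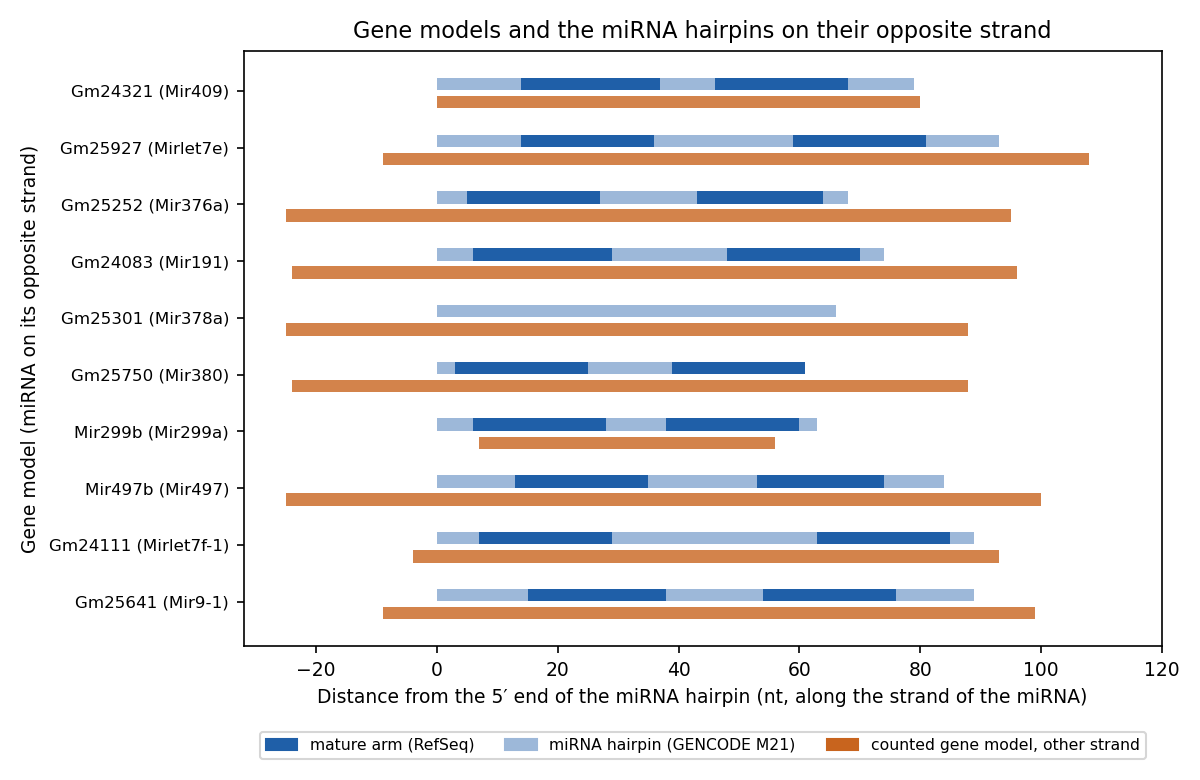
Each row shows a counted gene model (lower bar) and the miRNA hairpin annotated on its opposite strand (upper bar, mature arms dark), against the distance in nt from the 5′ end of the hairpin along the strand of the miRNA. The model covers the whole hairpin in every row except that of Mir299b, whose model of 49 nt ends inside the hairpin; arms of Mir378a are not drawn.

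The values that chose the models are given here as a description. The 10 models held 97127 opposite-strand counts in replicate 1 and 113043 in replicate 2, against 11 and 9 counts on their own strand. Their opposite-strand counts were 98.7% ± 0.122 of all opposite-strand counts at the 1973 models (SD, n = 2). Of the 10, 7 had no count on their own strand in either library. A count of 0 was taken as up to 3 counts, or 0.424 CPM in replicate 1 and 0.378 CPM in replicate 2. The other models of the 10 were Mir299b with 7 and 5 counts on its own strand, and Mir497b and Gm24111 with 2 in each library. Without molecular identifiers on the reads, these limits and the intervals below reflect counting error alone.

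Gm24321 had 25579 opposite-strand counts in replicate 1 and 29815 in replicate 2, against 0 and 0 on its own strand. These were 8526-fold and 9938-fold the floor of 3 counts per library. Gm25927 had 24030 and 26135 opposite-strand counts, and Gm25252 had 15435 and 18439, each against 0 and 0. Gm24083 had 12979 and 14354 opposite-strand counts, again against 0 and 0. These 4 models, opposite Mir409, Mirlet7e, Mir376a and Mir191, held 79.4% ± 1.29 of the summed level of the 10. Gm25301 had 8148 and 11063 opposite-strand counts, and Gm25750 had 4165 and 5880, each against 0 and 0. Mir299b had 3510 and 3236 opposite-strand counts, 99.8% of its counts in either library. Mir497b had 2142 and 2963, a share of 99.9% in each. The lowest were Gm24111, with 637 and 725, and Gm25641, with 502 and 433 opposite-strand counts against 0 and 0. The lowest opposite-strand share was that of Gm24111, at 99.7% in each library, with a 95% Wilson interval of 98.9% to 99.9% in replicate 1. The lower of the 2 opposite-strand counts of each model was above its higher own-strand count. The choice requires 10 or more opposite-strand counts in both libraries, and no own-strand count was above 7, so this adds nothing to the choice.

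**Figure D2:**
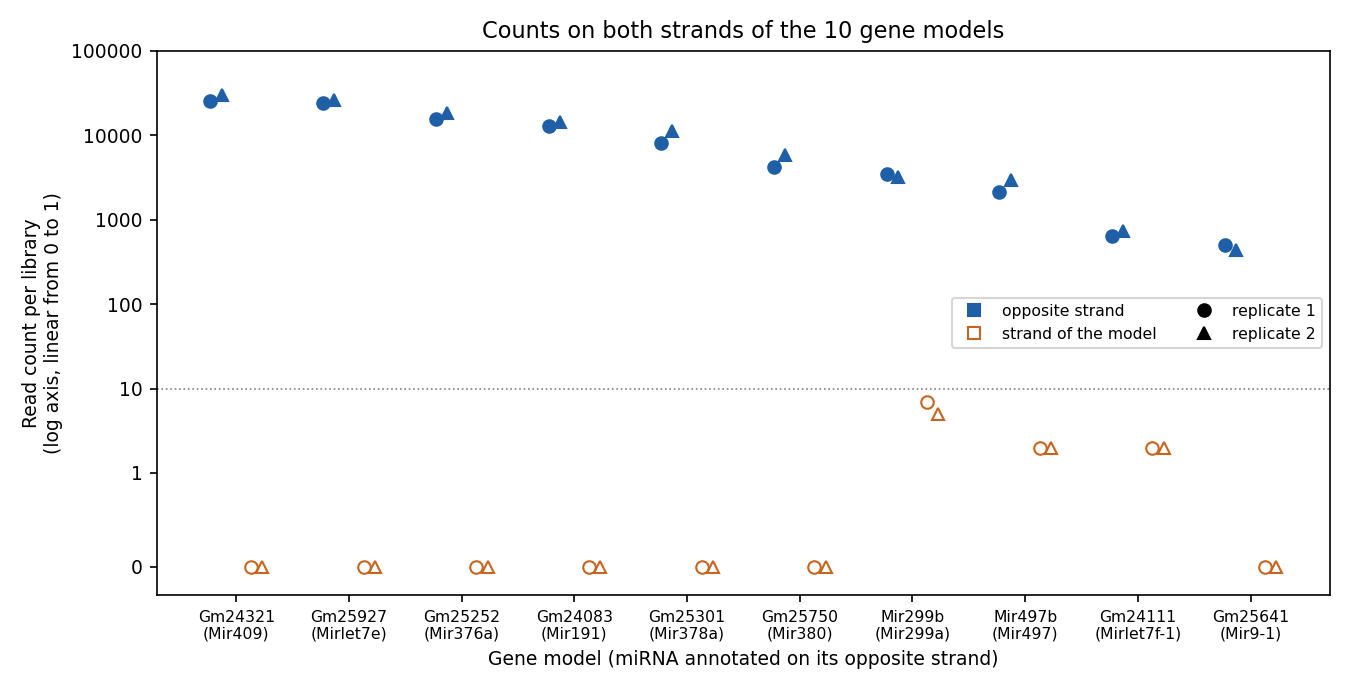
Read counts per library on the opposite strand (filled, left) and on the strand of the model (open, right) for the 10 gene models, on a log axis that is linear from 0 to 1; the dotted line marks the minimum of 10 counts. Opposite-strand counts lie between 433 and 29815 and own-strand counts between 0 and 7.

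Few models stood near the thresholds. Gm24513 had 9 and 2 opposite-strand counts against 0 and 0, Mir124a-3 had 11 and 4 against 3 and 4, and Gm24970 had 3 and 0 against 0 and 0. A further 4 models reached 10 opposite-strand counts in both libraries but had more on their own strand. They were Mir203 with 165 and 125 opposite-strand against 8628 and 10876 own-strand counts, Mir3074-1 with 43 and 59 against 1183 and 1163, Mir337 with 29 and 25 against 5801 and 5835, and Mir708 with 19 and 15 against 42238 and 42506. Outside the 11 models that met the thresholds, 1962 models together held 428 and 347 opposite-strand counts. Mir142b, the eleventh, lies opposite the hairpin of Mir142, a miRNA of blood cells, and had 979 and 1090 opposite-strand counts against 0 and 0, or 138 ± 0.781 CPM.

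A miRNA gene on the other strand was not particular to the 10 models. GENCODE M21 places one opposite 32 of the gene models, and none of those 32 opposite-strand genes is itself among the genes analysed here, so each such locus is represented by the model of 1 strand. Of the 32, 11 met the thresholds and 21 did not. At 28 of the 32 loci either strand had 10 or more counts in both libraries. At the 11 that met the thresholds the opposite strand held at least 99.7% of the counts in each library, where the choice by these counts requires it to be the larger, and at the other 17 it held at most 16.7% in replicate 1 and 10.3% in replicate 2, with 5 of the 17 at 0. No locus lay between these ranges. The shares leave out reads that matched several places. The longest stretch on both strands was 22 nt at Mir486 and 20 nt at Mir374b, beside 21 nt at Mir299b. Whether arms at the 17 loci occur in other hairpins was not tested, so their shares are uncertain. The highest opposite-strand share of the 17 was that of Mir486, opposite Mir3107, with 8 and 6 opposite-strand counts against 40 and 52. Mir3071, opposite Mir136 in the same Dlk1-Dio3 region, had 6 and 3 opposite-strand counts against 1400 and 1468 on its own strand, unlike the 4 models of that region described above. Mir126a and Mir30e, opposite Mir126b and Mir30f, had the largest own-strand counts, at 8 and 4 opposite-strand against 156496 and 177725 own-strand counts and 0 and 0 against 179161 and 166695.

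**Figure D3:**
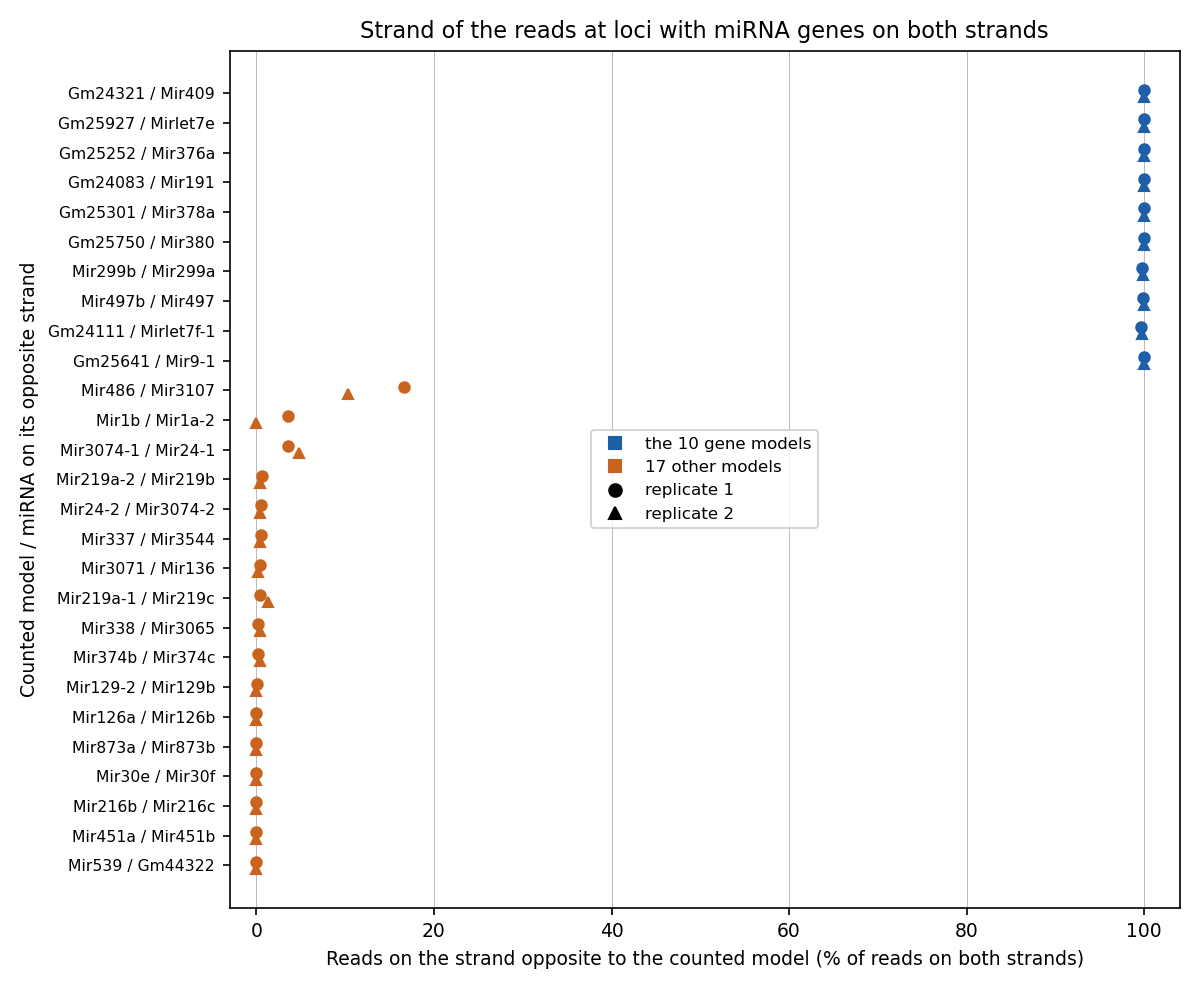
Share of reads on the strand opposite to the counted model (percent of reads on both strands, per library) at 27 loci where GENCODE M21 annotates a miRNA gene on each strand and either strand had 10 or more counts; Mir142b is left out. The 10 gene models sit at 99.7% or above and the 17 other models at 16.7% or below.

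Features the choice did not use were compared between the 10 models and the 17 other detected loci. The predicted folding energy of the hairpin window (RNAfold) was lower, that is more stable, on the strand of the miRNA than on that of the model in 7 of the 10. The exceptions were Mir376a, Mir299a and Mir497. At the 17 other loci the strand of the opposite miRNA was the more stable in 6. With the whole counted model folded in place of the hairpin, a window chosen after seeing the data, the counts were again 7 of 10 and 6 of 17, but the exceptions among the 10 were Mir191, Mir378a and Mir497, so which loci are exceptions depends on the window. In the hairpin window the median difference, model minus opposite-strand miRNA, was 4.75 kcal/mol at the 10 models, with a range from -5.6 to 13.9, and -1.8 kcal/mol at the 17 others, with a range from -14.5 to 6.9. The ranges overlap widely. GC content ran from 32.4% to 62.4% in the 10 and from 33.3% to 65.6% in the others, and the longest stretch shared by both strands had a median of 9 nt in the 10 and 10 nt in the others.

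As levels, the opposite-strand counts of the 10 models summed to 13718 and 14225 CPM in replicates 1 and 2, a mean of 13972 ± 359 CPM (SD, n = 2). Reads of mature miRNAs cover the whole arm, so CPM was not divided by gene length. Set among the 399 gene models detected on their own strand, Gm24321 at 3682 ± 98.5 CPM would rank 44 and Gm25927 at 3341 ± 74.3 CPM would rank 49. Gm25252 at 2250 ± 99.3 CPM would rank 61, Gm24083 at 1820 ± 19.0 CPM 70, and Gm25301 at 1271 ± 171 CPM 80. All 5 lie in the upper part of that range. Gm25750 stood at 664 ± 107 CPM, Mir299b at 451 ± 62.6 CPM and Mir497b at 338 ± 49.7 CPM, with ranks from 97 to 126. Gm24111 at 90.6 ± 0.896 CPM would rank 198 and Gm25641 at 62.7 ± 11.6 CPM would rank 216, near the middle. The order of the 10 levels was the same in both libraries. The coefficient of variation between the libraries ran from 0.988% in Gm24111 to 18.5% in Gm25641, with a median of 8.92%.

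Of the models, 4 lie in the Dlk1-Dio3 region, an imprinted domain whose miRNAs come from the maternally inherited chromosome and are abundant in the embryonic brain. Mir376a belongs to a family whose transcripts are edited by ADAR enzymes in the brain, and miR-380-5p is known to repress the tumour suppressor p53. Their summed opposite-strand level was 6877 and 7219 CPM in replicates 1 and 2, or 50.4% ± 0.439 of the level of all 10. A list of 32 other miRNA genes of the cluster held 31 among the genes analysed here, of which 29 were detected, and their own-strand levels summed to 45194 and 49790 CPM. The 4 models were 12.9% ± 0.384 of members and neighbours together. Opposite Mir409, Gm24321 stood at 3613 and 3752 CPM, and only Mir487b, Mir411 and Mir369 of the detected neighbours were higher in either library. Its nearest neighbours differed widely: Mir412, 52 nt from the model, stood at 70.9 ± 6.93 CPM, Mir369, 181 nt away, at 4339 ± 219 CPM, and Mir410, 478 nt away, at 43.0 ± 1.25 CPM. Opposite Mir376a, Gm25252 stood at 2180 and 2320 CPM, with 5 detected neighbours above it in either library, while Mir376c of the same family stood at 172 ± 20.2 CPM. Mir376b, 217 nt from the model, was not among the genes analysed. Reads that fit several genes of the family entered none of them, so this contrast is uncertain. Opposite Mir380, Gm25750 stood at 588 and 740 CPM, with 10 and 7 neighbours above it. Opposite Mir299a, Mir299b stood at 496 and 407 CPM, a level that leaves out reads fitting both strands, with 10 and 11 above it. Compared with the median detected neighbour, on the log2(CPM + 1) scale, Gm24321 was higher by 4.19, Gm25252 by 3.48, Gm25750 by 1.71 and Mir299b by 1.16. The neighbours themselves ran up to 23191 CPM, in Mir487b, and 2 of the 31, Mir654 and Mir453, were at 0.

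**Figure D4:**
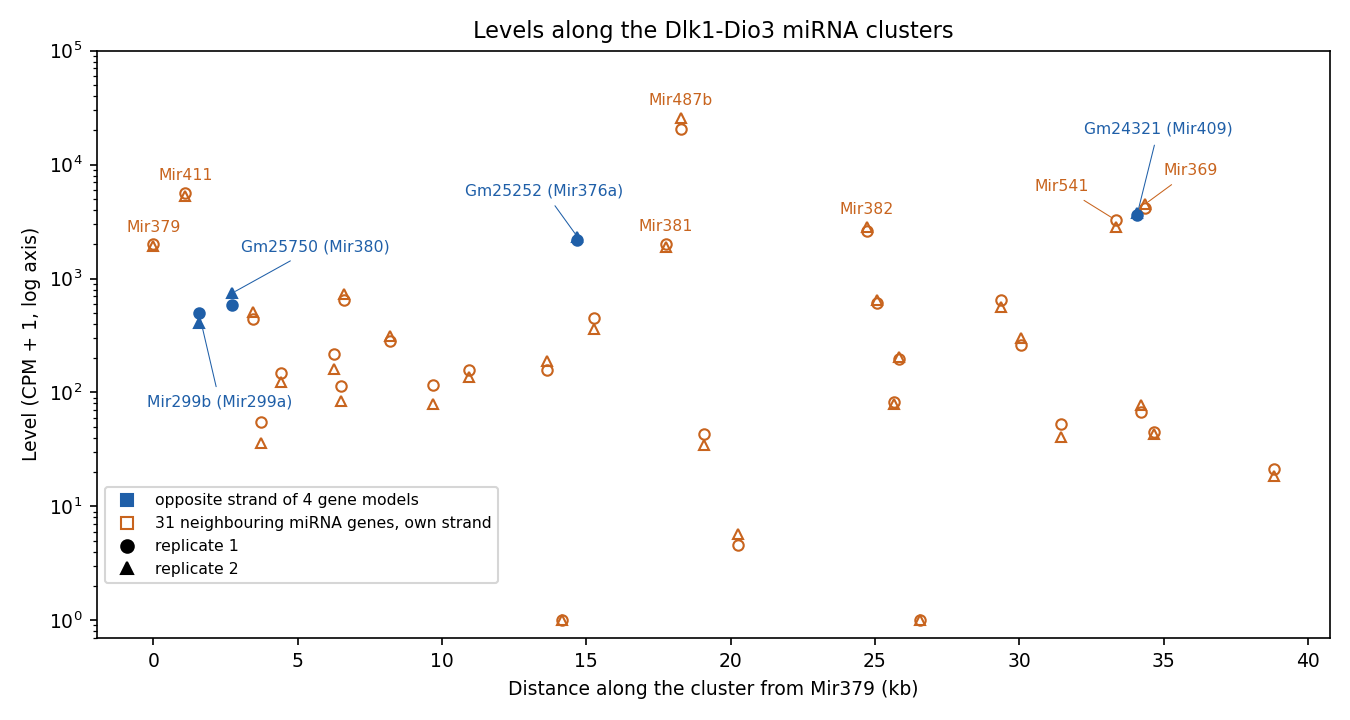
Level (CPM + 1, log axis) in each library along the Dlk1-Dio3 miRNA clusters, by distance in kb from Mir379, for the opposite strand of 4 gene models (filled) and 31 neighbouring miRNA genes on their own strand (open). The models opposite Mir409 and Mir376a, at 3682 and 2250 CPM, sit among the highest neighbours, and those opposite Mir380 and Mir299a, at 664 and 451 CPM, lower.

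The let-7 family accumulates as embryonic tissues differentiate and represses growth and stem cell factors such as Lin28 and Hmga2. Opposite Mirlet7e, Gm25927 stood at 3394 CPM in replicate 1 and 3289 CPM in replicate 2. Mirlet7e belongs to a cluster with Mir99b and Mir125a, which stood at 23511 ± 103 CPM and 5732 ± 299 CPM, so Gm25927 was 10.3% ± 0.143 of the 3 together and was the lowest of them in both libraries. Opposite Mirlet7f-1, Gm24111 stood at 90.0 and 91.2 CPM. Its cluster neighbours were Mirlet7a-1, 258 nt away at 234 ± 25.7 CPM, and Mirlet7d, 1711 nt away at 7371 ± 672 CPM, both higher. The arm let-7f-5p is also encoded by Mirlet7f-2, at 3442 ± 375 CPM, and since reads that match several places entered no gene model, the level of Gm24111 leaves out any read that fits both loci. Both models together stood at 3432 ± 73.4 CPM, or 2.54% ± 0.0861 of the family including the 10 other let-7 genes with counts. Those were led by Mirlet7g at 58526 ± 5941 CPM and Mirlet7i at 49620 ± 5832 CPM. Of the 10, 5 in replicate 1 and 6 in replicate 2 were above Gm25927, and all 10 were above Gm24111. Reads that fit several let-7 loci are missing from the other let-7 genes as well. The share of 2.54% and this order are therefore uncertain for the family.

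Opposite Mir191, a broadly expressed miRNA, Gm24083 stood at 1833 and 1806 CPM. Its cluster partner Mir425, 363 nt from the model, stood at 1549 CPM in replicate 1 and 1133 CPM in replicate 2. Gm24083 was therefore 57.8% ± 5.13 of the pair and the higher of the 2 in both libraries, by 0.46 on the log2(CPM + 1) scale. The spread of that share came from Mir425, whose SD was 294 CPM against 19.0 CPM for Gm24083.

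Opposite Mir378a, which is processed from an intron of Ppargc1b and is known for roles in energy metabolism and muscle, Gm25301 stood at 1151 CPM in replicate 1 and 1392 CPM in replicate 2. The other genes named after that family in the counts were far lower. Mir378b, Mir378c and Mir378d summed to 5.93 and 7.68 CPM, 2 of the 3 were detected, and Gm25301 was 99.5% ± 0.0251 of the sum with them. Reads that fit several genes of this family entered none of them. Whether arms of Mir378a occur in other hairpins was not tested, so this share is uncertain. Own-strand counts alone thus put this family at no more than 7.68 CPM in either library.

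Opposite Mir497, whose 5p arm has the seed of the miR-15 and miR-16 family of cell cycle regulators, Mir497b stood at 303 and 373 CPM. Its cluster partner Mir195a, 226 nt away, stood at 716 and 867 CPM, and Mir497b was 29.9% ± 0.263 of the pair. Both were lower in replicate 1 than in replicate 2. Mir195b, which is on another chromosome, had no count in either library. All 6 genes of the family list were above Mir497b in both libraries, from Mir195a to Mir322 at 9370 ± 77.6 CPM, and Mir497b was 1.24% ± 0.306 of the sum with them. Reads that fit several genes of the list entered none of them, so this share is uncertain.

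Opposite Mir9-1, Gm25641 stood at 70.9 and 54.5 CPM. The miRNA miR-9 is abundant in the developing forebrain, where it acts on neural progenitors. Both arms of miR-9 have the same sequence in Mir9-2 and Mir9-3, so reads of these arms fit all 3 loci, and reads matching several places entered none of them. The sequences of miR-9 and of the arms RefSeq lists for the strand of the counted model, named miR-9b, are shown with seeds in capitals.
miR-9-5p: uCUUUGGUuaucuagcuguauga
miR-9-3p: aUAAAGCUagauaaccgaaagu
miR-9b-5p: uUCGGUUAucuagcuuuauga
miR-9b-3p: aUACAGCUagauaaccaaaga

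What remained at the other 2 loci was 595 ± 55.5 CPM at Mir9-3 and 5.00 ± 1.47 CPM at Mir9-2, and Gm25641 was 9.42% ± 0.819 of the sum of the 3. These 3 values leave out reads that fit several loci and are uncertain as levels of miR-9. Among the models whose opposite-strand arms were read, the 2 with arms shared by other annotated hairpins were Gm24111 and Gm25641. They were the 2 lowest of the 10, and the arms read for 7 others occur in no other annotated hairpin.

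The ratio between the libraries played no part in choosing the models and was tested for all 821 combinations of gene model and strand with a count. Each count was set against the other annotated-strand miRNA counts of its library in Fisher's exact test, two-sided. Benjamini-Hochberg adjustment was over the 821, with a threshold of 0.05. The test compares these 2 libraries and takes in counting error only. Of the 821, 201 passed, or 24.5%, and 11, or 1.34%, passed with at least a 2-fold difference. Of the 10 models, 8 passed and 0 at 2-fold, at an unadjusted p under 0.05 likewise 8. The share that passes grows with depth. Among the 227 features with a mean count at least that of Gm25641, the lowest of the 10, 167 passed, or 73.6%. The share of the 10 models is near that one, but these features were not matched to each model in depth.

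Of the 8, 3 were higher and 5 lower in replicate 1 than in replicate 2, and with median-of-ratios scaling, which called 9 with Gm24083 gained, 2 were higher and 7 lower. Over all features called the split was 128 higher and 73 lower, and 90 and 103 with that scaling. Gm25641 was 1.30-fold higher, with a 95% counting interval of 1.14 to 1.48 and an adjusted p of 0.000331 by Fisher's exact test. Mir299b was 1.22-fold higher (1.16 to 1.28, adjusted p = 5.93e-15, Fisher's exact test) and Gm25927 1.03-fold higher (1.01 to 1.05, adjusted p = 0.00221, Fisher's exact test). The lower ones were Gm25750, with a ratio of 0.795 (0.764 to 0.827), Mir497b with 0.811 (0.767 to 0.858) and Gm25301 with 0.827 (0.803 to 0.851), followed by Gm25252 with 0.940 (0.920 to 0.960) and Gm24321 with 0.963 (0.947 to 0.979). Gm24083, with a ratio of 1.01 (0.991 to 1.04), and Gm24111, with 0.986 (0.887 to 1.10), did not pass, at adjusted p of 0.504 and 1 by Fisher's exact test. The direction for Gm25927 and Gm24083 turned under 3 other scalings of the libraries, and 1 of these, without the most abundant gene in the total, ended the call of Gm25927.

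All 10 models were within 1.5-fold between the libraries, as were 90.0% of the 399 gene models detected on their own strand. The median fold apart was 1.13 for the 10 models and 1.17 for the 399. In replicate 1, 4 of the 10 models were higher and 6 lower, with a median log2 ratio of -0.04, and 248 of the 399 were higher and 151 lower, with a median of 0.09. With median-of-ratios scaling all log2 ratios shift by -0.11.

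**Figure D5:**
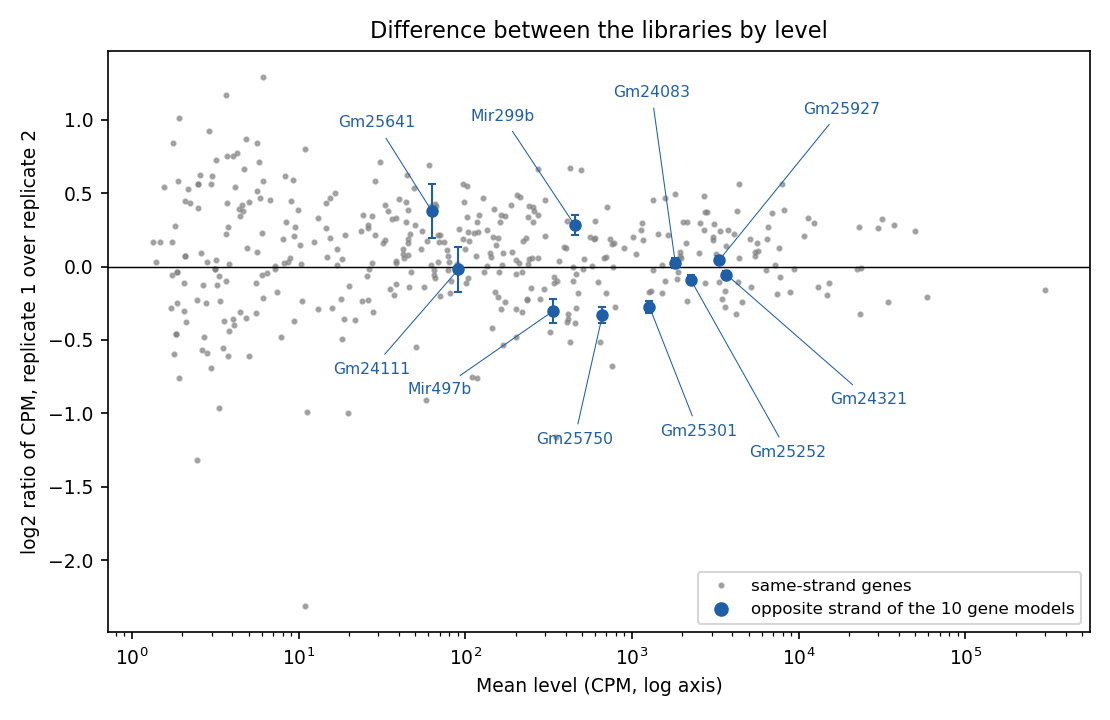
log2 ratio of CPM, replicate 1 over replicate 2, against mean CPM (log axis) for the opposite strand of the 10 gene models (large points, bars are 95% counting intervals) and for 399 gene models on their own strand (small points). All 10 models lie between -0.33 and 0.38, inside the cloud of the other points.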

How the data were processed

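Values are whole-number counts of reads per miRNA gene model in 2 forebrain libraries, as deposited by the authors, with columns for either strand, the strand of the model and the opposite strand. They rest on mm10 and GENCODE M4, per the deposited README. Which aligner and counter were used is not given in the sources used here. The either-strand count equalled the sum of the strands in all 1973 models. Totals naming no gene, multi-mapping reads included, stayed out of library sizes and tests.

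CPM divides by the own-strand total over all models. Names and positions came from GENCODE M21 (1894 of 1973 IDs matched) and sequences from RefSeq. Detection means 10 counts in both libraries, and log2 differences add 1 CPM. Libraries were compared with Fisher's exact test (SciPy 1.17.1), tested on simulated data. Alternatives used TMM (edgeR 4.0.16) and median of ratios (DESeq2 1.42.0), other totals, filters, minima and pseudocounts, and each library left out. Folding energies came from RNAfold 2.7.2.

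The members and lists were chosen with earlier results of these data known. Genes named are the members, models near the thresholds, and listed cluster neighbours, family genes and cell type markers. Other models with an annotated antisense gene were chosen after their values were seen.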

Additional observations from a re-analysis of the deposited data

Results flagged for a closer look

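Outside the 10 models, the opposite strand of Mir203 held 165 counts in replicate 1 and 125 in replicate 2, a mean of 145, above the floor of 3 counts taken for a count of 0. This was a signal in a column that the usual own-strand counts leave out. Its share of the counts at Mir203 was 1.88% in replicate 1 and 1.14% in replicate 2, where the own strand held 8628 and 10876 counts. RefSeq lists a miRNA hairpin, Gm51289, on the minus strand at chr12:112130887-112130946, inside the Mir203 model, which is on the plus strand (GRCm38).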

How the results depend on the processing

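Leaving Mir99a, the most abundant gene, out of the scaling total raised the summed level of the 10 models to 20011 CPM, against 13972 CPM, and the sum was otherwise between 13718 and 14225 CPM, the range without either replicate. For Gm25927 the log2 ratio between the libraries was 0.0454 and became -0.0242 without Mir99a, -0.0343 with TMM and -0.0649 with median of ratios. For Gm24083 it was 0.0212 and became -0.0484, -0.0584 and -0.0891 in the same order. TMM and median of ratios each called 9 of the 10 models between the libraries (Gm24083 gained) and every other setting 8, with Gm24083 gained and Gm25927 lost without Mir99a. Over all features tested the calls higher and lower in replicate 1 were 128 and 73, and 100 and 90 without Mir99a, 99 and 92 with TMM, and 90 and 103 with median of ratios; for the 10 models they were 3 and 5, then 2 and 6, 2 and 7, and 2 and 7. The cause was not tested. Between 11 and 13 models met the thresholds at a minimum of 1, 10 or 100 counts or in 1 library alone. Depth limits own-strand counts: a count of 0 was taken as up to 3. No paired analysis was possible because the labels name only 1 group.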
